A study of Homo sapiens with 4 samples.

Results

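The miRNAs described here form 2 groups that are best known from mesenchymal cells. The miR-199/miR-214 members are hsa-miR-199a-5p, hsa-miR-199a-3p, hsa-miR-199b-5p, hsa-miR-199b-3p and hsa-miR-214-3p. The miR-143/miR-145 members are hsa-miR-143-3p and hsa-miR-145-5p. MiR-199b is grouped with miR-199a, although its hairpin lies on another chromosome. The members are 7 of the 1474 miRNAs with at least 1 count in the series. They give 6 distinct profiles, because miR-199a-3p and miR-199b-3p are the same sequence and had identical counts in every library. They were chosen by measured values: the counts of miR-199a and miR-214 differed in opposite directions between the radioresistant and parental libraries of the 2 cell lines. The differences between those libraries are therefore given as descriptions, with no test.

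HCT116 and RKO are established human lines of colorectal cancer cells. The radioresistant HCT116-R and RKO-R were derived from them with doses of 4 Gy to a total of 40 Gy and kept at least 3 weeks without irradiation, so each resistant line was a single derivation from its parent. Small RNA of 18 to 30 nt was sequenced in 1 library per line, and the depositors gave raw counts per mature miRNA, which summed to between 6818497 in HCT116-R and 7140460 in RKO. Levels are in CPM, counts scaled so that every library has the same total. Values of all 4 libraries are given in the order HCT116, HCT116-R, RKO, RKO-R unless named. With no replicate of any line, every interval below is a 95% interval of counting error only, and a difference compares 2 libraries, not 2 conditions. A count of 0 allows up to 3 counts, which is between 0.420 CPM in RKO and 0.440 CPM in HCT116-R.

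MiRNAs are cut from hairpin precursors, and bases 2 to 8 of the mature strand, the seed, pair with target mRNAs. The miR-199a-2 and miR-214 hairpins are made from the non-coding transcript DNM3OS, which the mesenchymal transcription factor TWIST1 is known to activate. The miR-143 and miR-145 hairpins lie in the host transcript CARMN and are abundant in smooth muscle and fibroblasts, and in the normal colon they are found mainly in the stroma rather than the epithelium. The lines hold no stroma by their labels, and the members together made up 0.0377%, 0.0165%, 0.000784% and 0.00940% of the counts of HCT116, HCT116-R, RKO and RKO-R.

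Mature sequences of 6 of the 7 members were found in RefSeq (GRCh38.p14) and are shown because they tell which counts can be assigned to a locus. The seed is in capitals, 5′ to 3′.
miR-199a-5p: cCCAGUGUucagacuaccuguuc
miR-199a-3p and miR-199b-3p: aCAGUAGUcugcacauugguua
miR-214-3p: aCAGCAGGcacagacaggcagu
miR-143-3p: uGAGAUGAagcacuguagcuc
miR-145-5p: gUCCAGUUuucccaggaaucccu
These 5 sequences have 5 different seeds. The 3p strand of miR-199 is identical from all of its hairpins, so its counts cannot be divided between miR-199a and miR-199b. The 5p strand of miR-199a is encoded at 2 loci and its counts cannot be divided between them.

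MIR214 lies at chr1:172138798-172138907 and MIR199A2 at chr1:172144535-172144644, both on the minus strand, 5627 bases apart. In GENCODE release 29 both overlap an exon of DNM3OS and lie within an intron of the protein-coding gene DNM3 on the opposite strand. The second copy of miR-199a, MIR199A1, lies at chr19:10817426-10817496 in an intron of DNM2, and MIR199B lies at chr9:128244721-128244830 in an intron of DNM1, each on the strand opposite to the gene. MIR143 lies at chr5:149428918-149429023 and MIR145 at chr5:149430646-149430733, both on the plus strand and 1622 bases apart. MIR143 overlaps an exon of the non-coding gene CARMN, and MIR145 lies in one of its introns.

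MiR-199a-5p, the strand of the miR-199a hairpin named for its 5′ arm, had 256, 19, 0 and 86 counts, which were 37.5 CPM (33.1 to 42.4), 2.79 CPM (1.68 to 4.35), 0 CPM and 12.4 CPM (9.95 to 15.4). The order was HCT116, RKO-R, HCT116-R and RKO, and no intervals of neighbours in that order overlapped. MiR-199a-3p, from the other arm, had 194, 32, 5 and 22 counts. Its level was 28.4 CPM (24.6 to 32.7) in HCT116 and 4.69 CPM (3.21 to 6.63) in HCT116-R, against 0.70 CPM (0.227 to 1.63) in RKO and 3.18 CPM (1.99 to 4.82) in RKO-R. HCT116 was highest and RKO lowest, and the intervals of HCT116-R and RKO-R overlapped.

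MiR-199b-5p, which comes from MIR199B alone, was counted in the HCT116 lineage only, with 46, 23, 0 and 0 counts. Its levels were 6.74 CPM (4.94 to 8.99) in HCT116 and 3.37 CPM (2.14 to 5.06) in HCT116-R. MiR-214-3p, the neighbour of miR-199a on chromosome 1, had 39, 1, 0 and 14 counts, which were 5.72 CPM (4.06 to 7.81), 0.147 CPM (0.00371 to 0.817), 0 CPM and 2.03 CPM (1.11 to 3.40). HCT116 and RKO-R stood apart from each other and from the remaining 2 libraries, and HCT116-R and RKO could not be told apart at this depth.

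MiR-143-3p, from the 3′ arm of the miR-143 hairpin, was the most abundant member in every library. Its 1733, 829, 51 and 522 counts were 254 CPM (242 to 266), 121.6 CPM (113 to 130), 7.14 CPM (5.32 to 9.39) and 75.5 CPM (69.2 to 82.3), with no overlap between any intervals. It ranked 115 among the 1105 miRNAs listed in HCT116 and 314 among the 1006 listed in RKO. MiR-145-5p, its neighbour on chromosome 5, had 307, 221, 0 and 6 counts. Its levels were 45.0 CPM (40.1 to 50.3), 32.4 CPM (28.3 to 37.0), 0 CPM and 0.868 CPM (0.319 to 1.89). Both HCT116 lineage libraries stood far above both RKO lineage libraries.

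**Figure D1:**
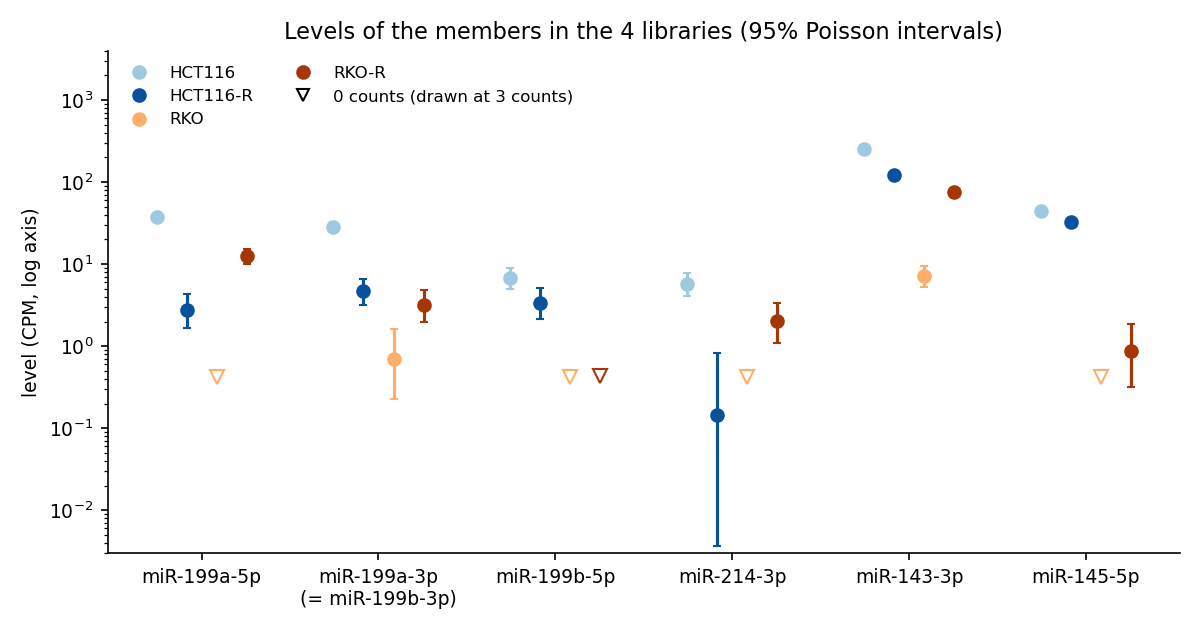
Levels of the 6 distinct members in CPM on a log axis, by library (light and dark blue, HCT116 and HCT116-R; light and dark orange, RKO and RKO-R). Points are single libraries with 95% Poisson intervals, and open triangles mark counts of 0, drawn at the level of 3 counts. HCT116 is highest for every member, and miR-143-3p reaches 254 CPM there.

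The comparison of HCT116-R with HCT116 asks which miRNAs differ between the single libraries of the radioresistant line and its parent. All 6 distinct members had lower levels in HCT116-R. MiR-199a-5p was 13.5-fold lower (8.45 to 22.7), miR-199a-3p was 6.06-fold lower (4.15 to 9.10), and miR-214-3p, with 1 count left, had a ratio of 0.0257 (0.000634 to 0.152). The other members differed less. MiR-143-3p was 2.09-fold lower (1.92 to 2.27), miR-199b-5p was 2.0-fold lower (1.19 to 3.45) and miR-145-5p was 1.39-fold lower (1.16 to 1.66).

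A 4-fold difference was used as the limit for a call, with counts of 3 or fewer set to 3, for the 604 miRNAs that reached 12 counts in HCT116 or HCT116-R. All 6 distinct members had that many counts, miR-214-3p through HCT116 alone, and 3 of them (miR-199a-5p, miR-199a-3p and miR-214-3p) were at least 4-fold lower in HCT116-R. Of all 604 miRNAs, 3.31% were at least 4-fold lower and 6.29% at least 4-fold higher. The median log2 ratio was -1.83 over the 6 members and 0.01 over all 604. Since the choice of members used this comparison, nothing is read from these counts.

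In the comparison of RKO-R with RKO, the members counted in either library were higher in RKO-R. Set against 3 counts in RKO, where neither was counted, miR-199a-5p was at least 29.6-fold higher and miR-214-3p at least 4.82-fold higher. These values leave out the counting error of RKO-R, and the exact 95% intervals of the ratios began at 23.6-fold and 3.43-fold, the second of which is below the 4-fold limit used for calls. MiR-143-3p was 10.6-fold higher (7.92 to 14.4) and miR-199a-3p was 4.54-fold higher (1.68 to 15.4). MiR-145-5p had 6 counts in RKO-R against 0 in RKO, and the interval of its ratio began at 1.22-fold. MiR-199b-5p was listed in neither library, so no ratio can be given.

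In this pair 506 miRNAs reached 12 counts in RKO or RKO-R, 4 of the 6 distinct members were among them, and all 4 were at least 4-fold higher in RKO-R: miR-199a-5p, miR-199a-3p, miR-214-3p and miR-143-3p. Of these 4, 3 entered only through their counts in RKO-R, so that their number carries no weight, and miR-143-3p alone had 12 or more counts in RKO. Of all 506 miRNAs, 3.56% were at least 4-fold higher and 7.51% at least 4-fold lower in RKO-R, and the median log2 ratio was -0.27. Scaling by TMM raised every log2 ratio of this pair by 0.24, and scaling by the size factors of DESeq2 raised it by 0.36. The number of all miRNAs called then went from 18 higher and 38 lower to 22 and 29 with TMM, and to 24 and 23 with the size factors, while the same count of 4 members was called. Of 440 miRNAs that could be called in both pairs, 5 names were lower in HCT116-R and higher in RKO-R, and 7 were the other way. The first 5 held 4 member names, which are 3 profiles and were there by the way the members were chosen. The remaining one was miR-1307-5p, named after its values were seen.

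**Figure D2:**
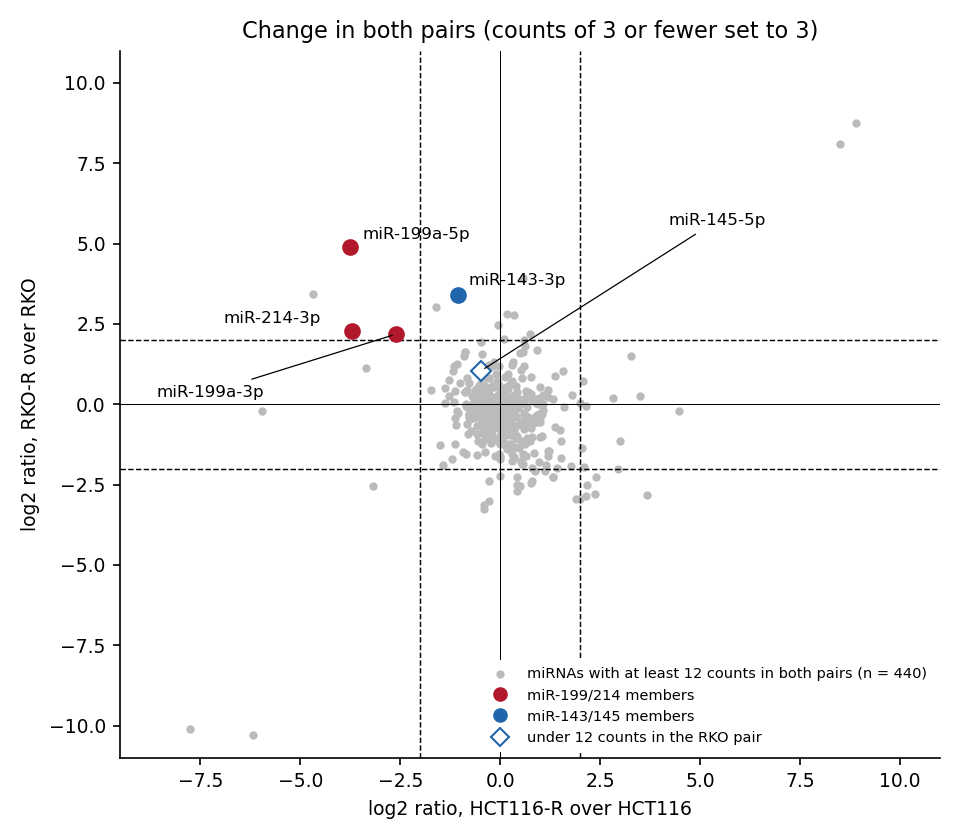
Log2 ratio of HCT116-R over HCT116 (x axis) against that of RKO-R over RKO (y axis). Each grey point is 1 of 440 miRNAs with at least 12 counts in a library of each pair, red points are miR-199/miR-214 members, blue points are miR-143/miR-145 members, and dashed lines mark the 4-fold limit. Members lie in the upper left, with miR-199a-5p at -3.75 and 4.89 and miR-143-3p at -1.06 and 3.40. MiR-199a and miR-214 lie there by the way the members were chosen. MiR-145-5p (open diamond) had under 12 counts in the RKO pair, and miR-199b-5p is not drawn because it had no count there.

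Whether both groups differ together was described with summed counts, with miR-199a-3p and miR-199b-3p counted once. The miR-199/miR-214 members summed to 535, 75, 5 and 122 counts. The miR-143/miR-145 members summed to 2040, 1050, 51 and 528. Both sums were lower in HCT116-R than in HCT116 and higher in RKO-R than in RKO. The miR-143/miR-145 sum was mostly miR-143-3p, which gave 1733, 829, 51 and 522 of its counts.

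The sizes were not alike in the HCT116 pair. The miR-199/miR-214 sum was 7.13-fold lower in HCT116-R (5.59 to 9.20) and the miR-143/miR-145 sum 1.94-fold lower (1.80 to 2.09), a difference between the log2 ratios of -1.88 (-2.26 to -1.51). In the RKO pair the miR-199/miR-214 sum was 25.2-fold higher (10.5 to 79.0) and the miR-143/miR-145 sum 10.7-fold higher (8.01 to 14.5). The difference there was 1.24 on the log2 scale, and its interval of -0.12 to 2.95 includes both equal ratios and an excess of miR-199/miR-214 of up to 7.72-fold. Library totals cancel in these differences, so no scaling changes them. MiR-199a and miR-214 were chosen for their ratios in these pairs, so the larger ratios of the miR-199/miR-214 sum are not independent of that choice. The intervals do not allow for it.

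Members of a group also differed among themselves. In the HCT116 pair the decrease of miR-199a-5p was 6.74 times that of miR-199b-5p (3.20 to 14.1), which comes from another chromosome. It was 2.22 times that of miR-199a-3p (1.18 to 4.28). MiR-143-3p decreased 1.5 times more than miR-145-5p (1.24 to 1.83). The neighbours on chromosome 5 parted further in the RKO lineage. In HCT116 there were 5.64 counts of miR-143-3p for each count of miR-145-5p and in HCT116-R 3.75, while RKO-R had 87 for each, and RKO had 51 counts of miR-143-3p and 0 of miR-145-5p.

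Set against parental HCT116, where every member was highest, RKO-R held miR-199a-5p at 33.2% (25.7 to 42.5), miR-214-3p at 35.4% (17.8 to 66.7) and miR-143-3p at 29.7% (26.9 to 32.8). These intervals overlap each other. MiR-199a-3p stood lower, at 11.2% (6.85 to 17.4), and miR-145-5p at 1.93% (0.702 to 4.25). MiR-199b-5p had no count in RKO-R, which allows up to 6.44% of the HCT116 level by the limit of 3 counts and up to 8.24% by the exact interval used for the other members. In HCT116-R, the values were 7.43% (4.40 to 11.8) for miR-199a-5p, 16.5% (11 to 24.1) for miR-199a-3p, 2.57% (0.0634 to 15.2) for miR-214-3p, 50.0% (28.9 to 84.3) for miR-199b-5p, 47.9% (44.0 to 52.0) for miR-143-3p and 72.0% (60.3 to 85.9) for miR-145-5p. MiR-199a-5p and miR-214-3p were among the lowest members in HCT116-R and among the highest in RKO-R by this measure. That restates the pattern for which they were chosen, and miR-214-3p rests on 1 count in HCT116-R. MiR-145-5p was the highest in HCT116-R and, of the members counted, the lowest in RKO-R.

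**Figure D3:**
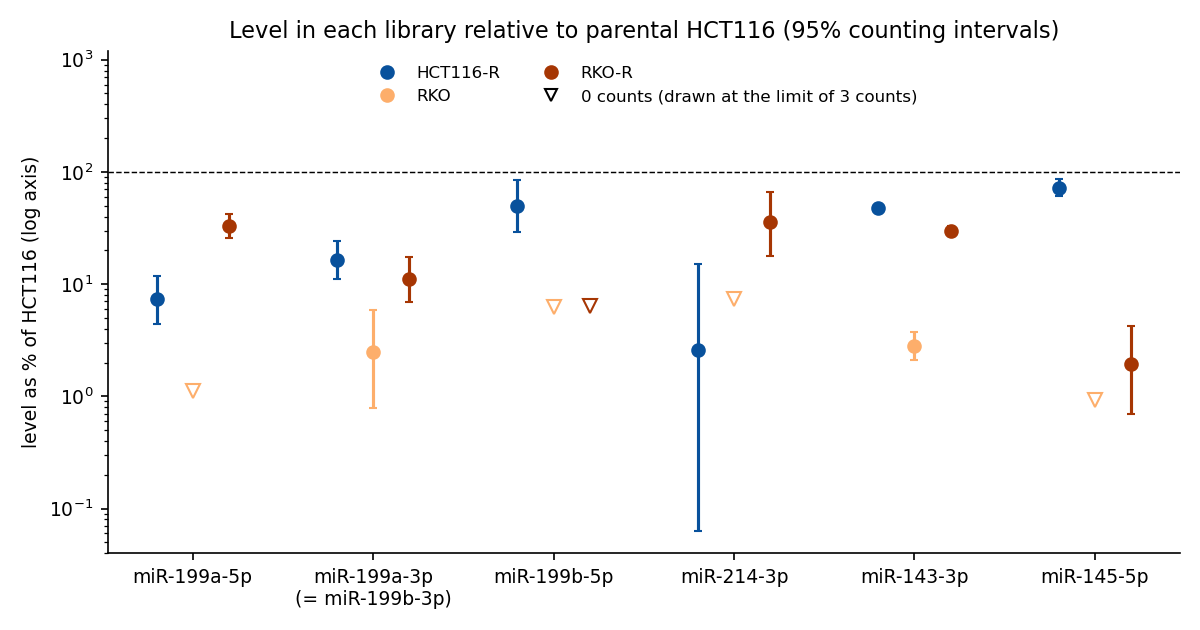
Level of each distinct member as a percent of its level in parental HCT116 (log axis; dashed line at 100%), in HCT116-R (dark blue), RKO (light orange) and RKO-R (dark orange), with 95% counting intervals. Open triangles mark counts of 0 at the limit that 3 counts set. RKO-R lies near 30% for miR-199a-5p, miR-214-3p and miR-143-3p and at 1.93% for miR-145-5p.

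Between the parental lines, all members were higher in HCT116 than in RKO. MiR-143-3p was 35.6-fold higher (26.9 to 48.0) and miR-199a-3p 40.6-fold higher (17.1 to 126.5). Set against 3 counts in RKO, miR-145-5p was at least 107.1-fold, miR-199a-5p at least 89.3-fold, miR-199b-5p at least 16.0-fold and miR-214-3p at least 13.6-fold higher. With the counting error of HCT116 included, the 95% intervals of these ratios began at 86.6-fold, 72.1-fold, 12.5-fold and 10.5-fold. Between the resistant lines the order was mixed. MiR-145-5p was still 37.3-fold higher in HCT116-R (16.9 to 103), and miR-143-3p was 1.61-fold higher (1.44 to 1.80). MiR-199a-5p was instead lower in HCT116-R, at 0.224 of its level in RKO-R (0.129 to 0.371), and miR-199a-3p had a ratio of 1.47 (0.831 to 2.66), which includes no difference.

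The 2 arms of a hairpin were compared as shares within a library, with exact binomial intervals. The 5p strand made up 56.9% (52.2 to 61.5) of the miR-199a counts in HCT116, 37.3% (24.1 to 51.9) of 51 counts in HCT116-R and 79.6% (70.8 to 86.8) of 108 counts in RKO-R. In RKO all 5 counts were on the 3p strand, which allows a 5p share of up to 52.2%. These shares include 3p strands of MIR199B, which cannot be separated. For miR-145, the 5p strand held 83.2% (79.0 to 86.9) of 369 counts in HCT116 and 76.7% (71.4 to 81.5) of 288 in HCT116-R. The other strand, miR-145-3p, had 62 and 67 counts in the HCT116 pair, a ratio of 1.08 (0.754 to 1.55) that includes no difference. The ratio of miR-145-5p was 0.666 of the ratio of miR-145-3p (0.444 to 0.999). For miR-214, the 3p strand had 39 of 49 counts in HCT116, 1 of 6 in HCT116-R and 14 of 15 in RKO-R. MiR-214-5p had 10, 5, 0 and 1 counts. MiR-143-5p was listed in no library.

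MIR3120 lies on the strand opposite to MIR214, at chr1:172138808-172138888, and the use of strand in counting is not given in the sources used here. MiR-3120-5p shares 18 bases with miR-214-3p on the other strand, and miR-3120-3p shares 21 with miR-214-5p. MiR-3120-5p had 5, 1, 0 and 0 counts, and miR-3120-3p had 5, 3, 0 and 0. In RKO-R, where miR-214-3p had 14 counts, neither strand of MIR3120 had any. Of the other miRNAs with a member's seed in the RefSeq table, miR-3619-5p, which has the seed of miR-214-3p, was the only one counted, with 8, 12, 4 and 1 counts. MiR-3129-5p, miR-761, miR-4770 and miR-6088 were listed in no library.

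Lists of miRNAs known from other cell types and tissues were set beside the members. In bulk RNA, fewer cells of a type and less RNA per cell cannot be told apart. The 5 muscle miRNAs miR-1-3p, miR-133a-3p, miR-133b, miR-206 and miR-208b-3p were near 0 throughout and summed to 13, 9, 6 and 6 counts. MiR-206, the highest of them, had 7 counts in HCT116, and miR-133b was at 0 in HCT116-R, RKO and RKO-R. Of the 10 miRNAs of the DLK1-DIO3 cluster, an imprinted locus with high expression in mesenchymal and neural cells, none of the 6 with enough counts in the HCT116 pair passed the 4-fold limit. Their median log2 ratio was 0.36, and the whole list summed to 564, 721, 22 and 34 counts. MiR-376c-3p, the highest of the list by the mean over the 4 libraries, had 199, 242, 0 and 1 counts, miR-411-5p 164, 176, 6 and 6, and miR-379-5p 109, 163, 2 and 2. In RKO-R, miR-376c-3p stood at 0.496% of its HCT116 level (0.0125 to 2.80). MiR-127-3p, named after its values were seen, differed from these with 15, 39, 14 and 25 counts. It was the highest of the list in RKO and RKO-R and the only one with enough counts in the RKO pair, where it was 1.84-fold higher in RKO-R (0.923 to 3.84).

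Of the 7 miRNAs known to be rich in fibroblasts, none passed the 4-fold limit among the 7 with enough counts in the HCT116 pair and the 5 in the RKO pair. MiR-100-5p was at 106921, 75075, 17672 and 21769 CPM, miR-22-3p at 7355, 14501, 16706 and 19257 CPM, and miR-10b-5p at 839, 637, 1861 and 1872 CPM. MiR-424-5p, with 875, 859, 0 and 4 counts, and miR-503-5p, with 30, 25, 0 and 0, are named after their values were seen and were counted almost wholly in the HCT116 lineage. The 11 epithelial miRNAs check the labelled cell type. MiR-200c-3p, a defining member of the miR-200 family, was at 42717 CPM in HCT116 and 42008 in HCT116-R, and at 90.9 in RKO and 206 in RKO-R. MiR-429, of the same family, was high in all 4, at 15883, 12719, 7251 and 8836 CPM, and so was miR-200a-3p, at 2113, 1665, 1840 and 1586 CPM. RKO and RKO-R thus lacked most of the miR-200c-3p of an epithelial profile and kept miR-429 and miR-200a-3p. Other miRNAs of the list are named after their values were seen. MiR-141-3p and miR-375-3p were also low, at 0.610% and 0.459% of their HCT116 levels in RKO-R. MiR-200b-3p, miR-203a-3p, miR-192-5p and miR-194-5p were at 65.5%, 80.3%, 143% and 107% there. The whole list summed to 66825, 60974, 10546 and 12256 CPM. In RKO-R, miR-200c-3p stood at 0.483% of its HCT116 level (0.458 to 0.509), and miR-200c-3p was 2.27-fold higher there than in RKO (2.07 to 2.49).

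One epithelial miRNA, miR-205-5p, passed the 4-fold limit in the HCT116 pair, with 795, 50, 0 and 2 counts. Of the 9 blood and endothelial miRNAs, miR-223-3p was the only one past the limit in that pair, with 54, 6, 3 and 5 counts. Both are named after their values were seen, and no miRNA of either list passed the limit in the RKO pair. Of all 604 miRNAs in the HCT116 pair, 3.31% were at least 4-fold lower and 6.29% at least 4-fold higher. Of all 506 in the RKO pair, 7.51% were lower and 3.56% higher. Single or absent calls in these short lists are therefore not read as results about the lists. By the mean over the 4 libraries, the highest of the blood and endothelial list were miR-126-3p, at 3949, 3452, 8331 and 8018 CPM, miR-126-5p, at 192, 132, 342 and 278 CPM, and miR-451a, at 12.5, 9.09, 7.56 and 4.63 CPM. The whole list summed to 4189, 3627, 8689 and 8309 CPM, and 1, 0, 1 and 2 of its 9 miRNAs were at 0. MiR-451a, known from red cells, was at a level like that of several members. MiR-486-5p and miR-144-3p of the same list, named after their values were seen, had 117, 98, 2 and 1 counts and 0, 2, 1 and 0 counts. The rest of the list, also named after their values were seen, had more counts in HCT116-R than in HCT116, unlike miR-223-3p. MiR-142-3p had 26, 66, 2 and 2 counts, 2.54-fold higher in HCT116-R (1.59 to 4.17). MiR-142-5p had 17, 26, 0 and 0 and miR-150-5p 27, 37, 53 and 47, with ratios whose intervals include no difference. The part that RNA of other cells had in the counts of the members was not tested.

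**Figure D4:**
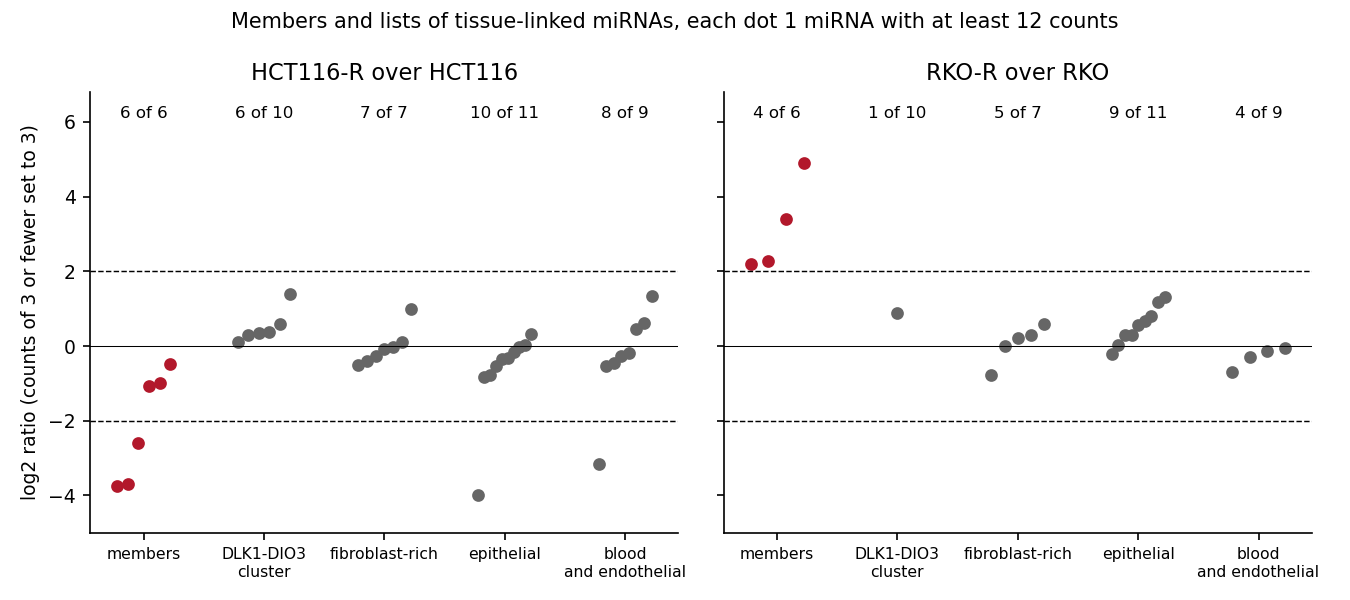
Log2 ratio of the radioresistant over the parental library for the distinct members (red) and 4 lists of tissue-linked miRNAs (grey), with HCT116 on the left and RKO on the right. Each dot is 1 miRNA with at least 12 counts in a library of the pair, the numbers above give how many of each list these are, and dashed lines mark the 4-fold limit. Past the limit lie 3 members, miR-205-5p and miR-223-3p on the left and 4 members on the right. MiR-199a and miR-214 were chosen for these ratios, so their place past the limit follows from the choice. Of the 4 on the right, 3 reached 12 counts only through RKO-R.

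Likeness of profile was measured as the root mean square difference of centred log2(CPM + 1) over the 4 libraries, among 668 miRNAs with at least 12 counts in a library. To miR-199a-5p, the closest were miR-214-3p (0.97), miR-199a-3p (0.97) and miR-143-3p (1.00), all of them members. The 4 values compared are those by which the members were chosen, so this closeness of miR-199a and miR-214 follows from the choice. The next were miR-129-5p (1.16), miR-33b-5p (1.17), miR-223-3p (1.30), miR-3622b-3p (1.33) and miR-652-3p (1.35), whereas miR-199b-5p ranked 50 and miR-145-5p 371. MiR-129-5p had 70, 12, 0 and 5 counts, and miR-33b-5p had 33, 1, 0 and 5. MiR-3622b-3p, with 85, 1, 0 and 0 counts, was in neither RKO lineage library. MiR-652-3p, with 16785, 11971, 5423 and 20111, was highest in RKO-R. To miR-143-3p, the closest outside the members were miR-95-3p (0.78), miR-139-5p (0.81), miR-556-5p (0.84), miR-12136 (0.91) and miR-139-3p (0.95). MiR-199a-3p ranked 4 in likeness to miR-143-3p and miR-199a-5p ranked 8, while miR-145-5p, its own neighbour in the genome, ranked 78. MiR-95-3p had 503, 236, 24 and 55 counts in the same order of libraries, and miR-556-5p had 73, 40, 1 and 8. The others named outside the members were higher in HCT116-R than in HCT116, unlike miR-143-3p. MiR-139-5p had 1307, 1963, 72 and 278 counts, miR-12136 had 719, 1064, 81 and 1200, and miR-139-3p had 343, 484, 17 and 50.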

How the data were processed

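The 4 small RNA libraries, 1 for each line, were made with adapters carrying unique molecular identifiers and read on a BGISEQ-500. For each mature miRNA the authors deposited a raw read count. The submitters' processing notes name Bowtie2 and hg38, and the miRNA annotation, the use of strand and the treatment of the identifiers are not given in the sources used here. A miRNA missing from a library's list was given 0 counts.

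Counts were scaled by the library total to CPM. Levels have exact Poisson intervals, ratios of 2 libraries exact conditional binomial intervals, ratios of ratios conditional odds ratio intervals, and shares exact binomial intervals, all at 95% and for counting error only, since reads are not known to be independent molecules. For calls, counts of 3 or fewer were set to 3, and a 4-fold limit was applied to miRNAs with at least 12 counts in a library of the pair. The study names edgeR and a BCV of 0.2. Its exact test (edgeR 4.0.16, R 4.3.3) served as an alternative for counts of calls, because with 1 library per line, and with members chosen on these comparisons, no p-value is given. The fold calls and intervals were tested on simulated data with counting error only, and the calls of edgeR on simulated counts with a BCV of 0.2. Neither test covers the low counts of some members, and variation between cultures was not measured.

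The members and lists were chosen with earlier results of these data known. The text names the members, the other arms of their hairpins, the antisense miRNAs of MIR214, the 3 most abundant miRNAs of each list, and the 5 closest profiles to miR-199a-5p and miR-143-3p. The lists are muscle, DLK1-DIO3, fibroblast-rich, epithelial, and blood and endothelial miRNAs. Hairpins were placed with RefSeq (GRCh38.p14) and GENCODE release 29. Alternatives used TMM, size factors of DESeq2 (1.42.0), other limits and a pseudocount. Computations used Python 3.11.15 with scipy 1.17.1.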

Additional observations from a re-analysis of the deposited data

Results flagged for a closer look

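Each of these results stood out because it was past the 4-fold limit in both pairs of lines with opposite direction, lower in HCT116-R than in HCT116 and higher in RKO-R than in RKO. The difference between the pairs was not tested, because each pair is 1 library against 1 and the members were chosen for this pattern. With counts of 3 or fewer set to 3, the log2 ratio of the RKO pair minus that of the HCT116 pair was 8.64 for miR-199a-5p, 4.78 for miR-199a-3p, 5.97 for miR-214-3p and 7.49 for the summed miR-199/miR-214 members. The miR-143/miR-145 members were not past the limit in the HCT116 pair.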

How the results depend on the processing

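No difference here has a replicate, and low counts limit miR-214-3p, miR-199b-5p and the RKO library most. Each line has 1 library, so no line could be left out within a pair. A fit over both pairs with the line as a block would leave 1 residual degree of freedom and was not run. Under the alternatives listed here, all 3 scalings, no filter on low counts and edgeR's exact test at a BCV of 0.2 left the members called at 3 (HCT116 pair) and 4 (RKO pair). With a limit of 2-fold, 4 and 4 members were called, and with a pseudocount of 1 count, 3 and 3. At a BCV of 0.4, 2 members were called in the HCT116 pair (miR-199a-5p and miR-214-3p) and 2 in the RKO pair (miR-199a-5p and miR-143-3p). Over all miRNAs, 58 of 604 were called for HCT116 and 56 of 506 for RKO. These calls became 54 and 51 with TMM within the pair and 51 and 47 with the size factors. With a 2-fold limit they were 151 and 165, and with the pseudocount 50 and 50. Without the filter, 58 and 56 were called among 1322 and 1155 miRNAs. The exact test of edgeR used these larger sets and called 53 and 64 at a BCV of 0.2, and 24 and 9 at 0.4. The difference between the 2 groups of members in the HCT116 pair was -1.88 with summed counts and -2.38 with medians of log2 ratios, which lies outside its interval of -2.26 to -1.51. In the RKO pair it was 1.24, and 0.48 with miR-199a-3p and miR-199b-3p counted separately and 0.04 with medians, all within its interval. All 33 log2 ratios of single members under other scalings or a pseudocount stayed within their counting intervals. In the RKO pair the intervals of miR-199a-5p, miR-214-3p and miR-145-5p have no upper end. Every alternative raised these ratios, so they could not have left their intervals.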
